A study of Mus musculus with 2 samples.

Results

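Accessibility was described at 8 genes that receive or relay the Hedgehog signal: the receptors and surface antagonists Ptch1, Smo and Hhip, the co-receptors Gas1, Cdon and Boc, and the intracellular regulators Sufu and Kif7. Their members were the consensus intervals whose nearest start of protein-coding transcription (TSS) belonged to 1 of the 8 genes. This rule took 114 of 119502 intervals. The counts came from live-cell ATAC-seq, in which Tn5 transposase cuts open chromatin, on mKate2+ cells sorted at day 5 from the Olig2-2A-mKate2 mouse embryonic stem cell line. The line reports Olig2, which encodes a transcription factor that marks the progenitors of motor neurons (pMN). There was 1 group of 2 replicates, and no group without agonist. Both had received bFGF and LGK, then bFGF, CHIR99021, SB-431542 and DMH1, and from day 3 to day 5 100 nM retinoic acid with 100 nM of SAG, an agonist of SMO. Each transposition used 50000 cells. The study states that sorting on the reporter also takes new motor neurons and some cells with both OLIG2 and NKX2.2, so the group is not 1 pure cell type. The assay served as a standard for accessibility measured in fixed cells.

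PTCH1 binds Hedgehog ligand and, when it is free of ligand, holds back the membrane protein SMO. GAS1, CDON and BOC bind ligand together with PTCH1, while HHIP binds ligand and takes it away. Downstream, SUFU and the ciliary kinesin KIF7 hold the GLI transcription factors in check, and Ptch1 and Hhip are known transcriptional targets of the pathway in the ventral neural tube. Accessibility is not expression, and none of the values below measures RNA.

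Both libraries were of near-equal depth, with 31876165 and 31672240 counts in intervals and size factors of 0.9996 and 1.0004. Normalised counts are counts divided by these factors, and density is normalised counts per kb of interval. The promoters of 4 neural progenitor genes were read as a coarse check of the cells. The study reports that pMN and more dorsal progenitors were very alike in their global accessibility. With no group of more dorsal progenitors here, whether these promoters tell pMN from them was not tested. All 4 had a TSS interval, with densities of 946 for Olig2, 862 for Sox2, 1452 for Nkx6-1 and 613 for Pax6. Among genes with a TSS interval, Olig2 stood above 56.3%, Sox2 above 50.6%, Nkx6-1 above 81.8% and Pax6 above 33.3%. Of 3 pluripotency genes only Zfp42 had one (237), and of 3 fibroblast genes Col1a2 (123) and Thy1 (248) did. Pou5f1 and Col1a1, which had none, each had 1 interval within 1 kb of a TSS. The promoters of Alb, Ins2 and Myh6, genes of unrelated tissues, had none. No source states that the replicates were separate cultures, so the spread between them may be technical.

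Of the 114 intervals, 8 overlapped a TSS, 1 for each gene, and 106 were distal. TSS intervals were thus 7.02% of the members and 12.4% of all intervals. The exact binomial test between the libraries called 0 of the 114 at an adjusted p under 0.01, as it did 0% of all 119502. An unadjusted p under 0.05 was found at 10 of the 114 (8.77%), beside 8.39% of all intervals.

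The exact letters of the GLI binding motif, GACCACCCA on either strand, were found in 6 of the 114 intervals (5.26%). Of all 119502 intervals 1140 (0.954%) held them. Members were longer, so the frequency per length is also given, at 6.38 matches per 100 kb of member interval and 1.43 per 100 kb of all intervals. Ptch1 held 4 of the 6 intervals, and 3 of the 21829 protein-coding genes, Ptch1 included, had at least 4. That limit is the count of Ptch1 itself, and a gene with more intervals has more occasions to reach it. Ptch1, with 21 intervals, had more than 94.8% of protein-coding genes did, and 57.5% of genes had fewer than 4 intervals. Without Ptch1 the count was 2 of 93 (2.15%). The sites are shown because GLI proteins are the transcription factors that these genes control. Each is on mm10, read on the strand that spells the motif, with the motif in capitals. In the Ptch1 lines the inner TSS is that at chr13:63565735 and the outer TSS that at chr13:63573598, of 5 annotated. For the site in the Ptch1 TSS interval, which lies in transcribed sequence, only the motif with 10 bases on each side is printed.
Ptch1 upstream of the inner TSS, chr13:63566395-63566483, plus strand: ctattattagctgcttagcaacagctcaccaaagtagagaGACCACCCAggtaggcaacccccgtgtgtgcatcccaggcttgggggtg
Ptch1 between the TSSs, chr13:63569245-63569333, minus strand: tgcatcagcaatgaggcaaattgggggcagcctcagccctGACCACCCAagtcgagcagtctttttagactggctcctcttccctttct
Ptch1 outer TSS interval, chr13:63573455-63573483, minus strand: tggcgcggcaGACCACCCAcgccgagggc
Ptch1 far upstream, chr13:63617181-63617269, minus strand: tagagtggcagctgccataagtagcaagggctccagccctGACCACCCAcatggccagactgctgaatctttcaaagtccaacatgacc
Smo upstream, chr6:29719033-29719121, minus strand: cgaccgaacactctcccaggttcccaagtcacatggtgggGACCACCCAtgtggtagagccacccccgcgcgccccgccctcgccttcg
Gas1 downstream, chr13:60085122-60085210, minus strand: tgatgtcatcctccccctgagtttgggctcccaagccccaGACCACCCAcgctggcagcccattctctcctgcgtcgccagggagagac

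The accessibility around these 6 sites varied widely. The first 3 Ptch1 sites lay in intervals of density 1774 ± 67.0, 1858 ± 31.4 and 1335 ± 12.0 (SD, n = 2, as for all densities below). The far upstream Ptch1 site, at -43.6 kb, lay in an intergenic interval of density 90.3 ± 22.1, below the median of all distal intervals. The Smo site lay in an interval of 148 ± 22.7 that overlaps a UTR of Tspan33, and the Gas1 site in one of 871 ± 49.7. The distance between motif and interval centre was 97 and 693 bp for the first 2 Ptch1 sites and 69 bp for the Gas1 site. The presence of the letters does not show binding.

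**Figure D1:**
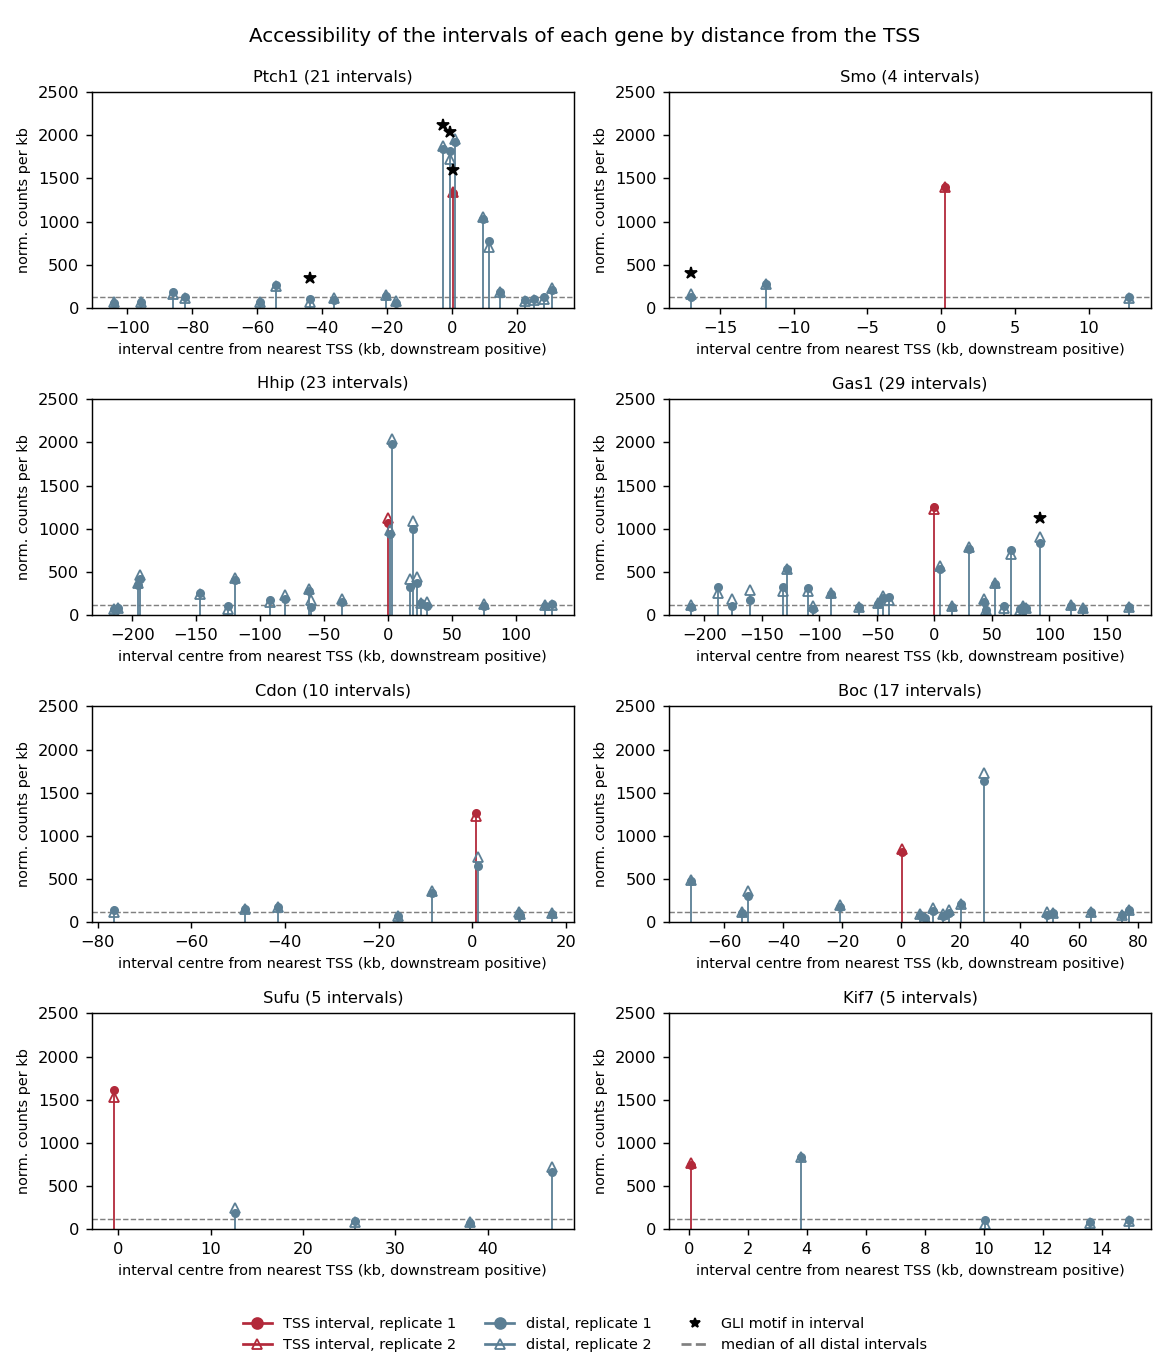
Density (normalised counts per kb) of each interval of the 8 genes against the distance of its centre from the nearest TSS of that gene in kb, with downstream positive; filled circles are replicate 1, open triangles replicate 2, red the TSS intervals, blue the distal intervals, stars the intervals with the GLI motif, and the dashed line the median of all distal intervals. Ptch1 has several TSSs, so its points near 0 belong to different TSSs. The 5 tallest distal stems stand within 5 kb of a TSS at Ptch1 and Hhip, and 28.0 kb downstream at Boc. Lower stems further out include 1045 at 20.1 kb downstream at Hhip and 871 at 91.7 kb downstream at Gas1.

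At the promoters, the order of the 8 genes ran from Sufu to Kif7 over a range of 754 to 1574. Sufu had densities of 1611 and 1538, Smo 1404 and 1405, and Ptch1 1326 and 1343 in replicates 1 and 2. Cdon followed with 1264 and 1233, Gas1 with 1254 and 1233, and Hhip with 1070 and 1125. Boc had 813 and 849, and Kif7 742 and 766. Every neighbouring pair in this order had separate replicate values except Cdon and Gas1, whose values overlapped. With 2 replicates this is a description and not a test. The median of the 8 was 1246 ± 18.3, and the median over the 14623 genes with a TSS interval was 853. Boc and Kif7 were below that median, and the other 6 genes above it. Sufu stood above 85.8% of the genes with a TSS interval and Kif7 above 43.0%.

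**Figure D2:**
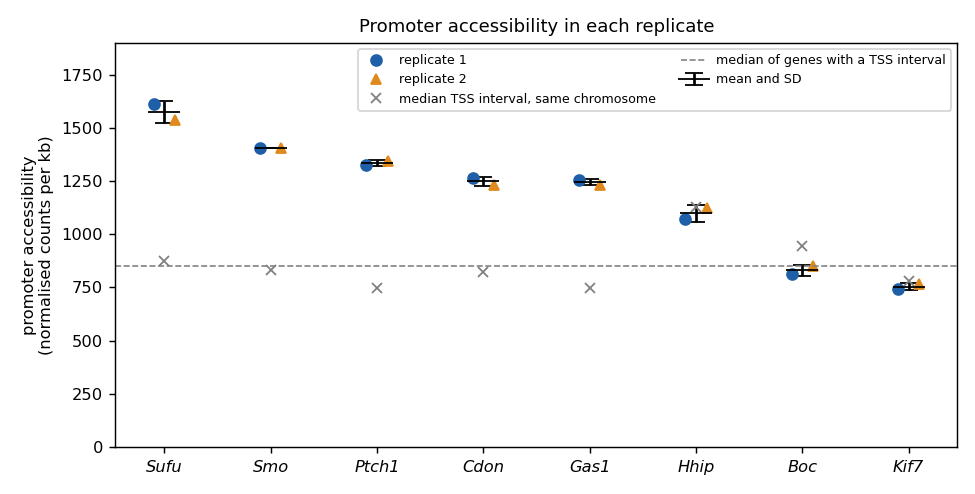
Promoter density (normalised counts per kb) of the 8 genes in replicate 1 (circles) and replicate 2 (triangles), with the mean and SD in black, ordered from high to low. The dashed line is the median of genes with a TSS interval (853) and the crosses are the median TSS interval of each gene's own chromosome; Sufu is highest at 1574 and Kif7 lowest at 754.

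Chromosomes differed in their promoter level. TSS intervals of chromosome 8, which carries Hhip, had a median 1.41 times that of the other autosomes, whereas its distal intervals were at 1.02 times. The Hhip promoter was at 0.972 of the median of its own chromosome. Ptch1 and Gas1, both on chromosome 13, were at 1.79 and 1.67 times theirs, Sufu at 1.80, Smo at 1.69 and Cdon at 1.52. Boc (0.879) and Kif7 (0.964) were below the median of their chromosomes. The part of this chromosome level in the Hhip value was not tested.

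The genes differed widely in their number of intervals. Gas1 had 29 intervals, Hhip 23, Ptch1 21, Boc 17 and Cdon 10, while Sufu and Kif7 had 5 each and Smo had 4. The median was 13.5, beside 3 over all protein-coding genes. These numbers depend on how far away the next gene lies. Per Mb of the stretch nearest to each gene, Kif7 came first with 155 and Ptch1 second with 128, and Hhip, with 391 kb of such sequence, came last with 58.8. The median of the 8 genes was 99.8 per Mb, beside 60.9 over all genes.

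The summed counts gave another order. Gas1 (10651 ± 31.3) and Ptch1 (10608 ± 10.1) were highest, and Hhip followed with 6614 ± 280. Boc (5439 ± 224) and Sufu (5314 ± 74.5) overlapped between replicates. Cdon had 3721 ± 36.7, Smo 2444 ± 28.3 and Kif7 1647 ± 2.58. The share of these counts in the TSS interval was 19.5% at Ptch1, 22.9% at Hhip, 27.5% at Boc and 35.6% at Gas1. It was 55.7% at Kif7, 57.4% at Cdon, 76.5% at Smo and 80.0% at Sufu. Over the 8 genes together the share was 38.9% ± 0.630, beside 55.0% ± 0.629 over all intervals. When every interval within 5 kb of a TSS was counted, the shares were close, at 59.1% for the 8 genes and 61.6% over all intervals.

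**Figure D3:**
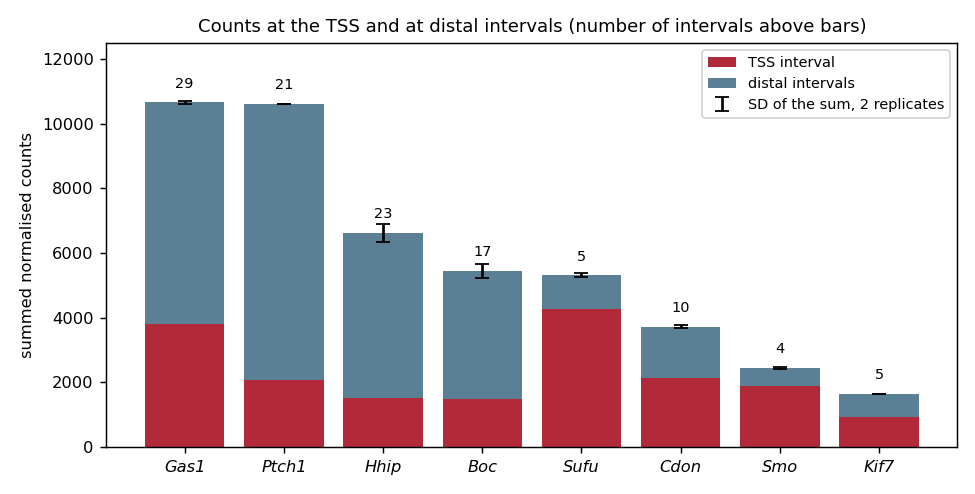
Normalised counts summed over the intervals of each gene, as the mean of 2 replicates, split into the TSS interval (red) and the distal intervals (blue), with the number of intervals above each bar and the SD of the sum as error bar. Distal intervals hold most of the counts at Gas1, Ptch1, Hhip and Boc, and the TSS interval holds most at Sufu, Cdon, Smo and Kif7.

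As a class, the 106 distal intervals had a median density of 144 ± 12.2, beside 124 ± 2.01 over all 104632 distal intervals. Their upper end was further apart, with a 90th percentile of 760 against 398. A mean normalised count over 100 was found in 53 of the 106 (50.0%), beside 31.2% of all distal intervals. Unlike density, this count also depends on length, and the median length was 692 bp for the 106 and 463 bp for all distal intervals. The 99th percentile of all distal intervals was 1260, and 5 of the 106 (4.72%) exceeded it: 3 at Ptch1, 1 at Hhip and 1 at Boc. Within 5 kb of a TSS, the 8 distal intervals of these genes had a median density of 1368, and the 10714 of all genes had 166. Of these 8, 3 were the Ptch1 intervals around its alternative promoters, and the 5 left without Ptch1, an alternative added after the values were seen, had a median of 839. From 5 to 20 kb the medians were 125 and 122. From 20 to 100 kb they were 136 and 120, and beyond 100 kb 122 and 119. A distal interval denser than the gene's own promoter was present at 4 of the 8 genes, beside 25.5% of the 11710 genes with both kinds of interval. A gene with more intervals has more occasions for this, and the median number was 13.5 for the 8 genes and 3 over all protein-coding genes.

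**Figure D4:**
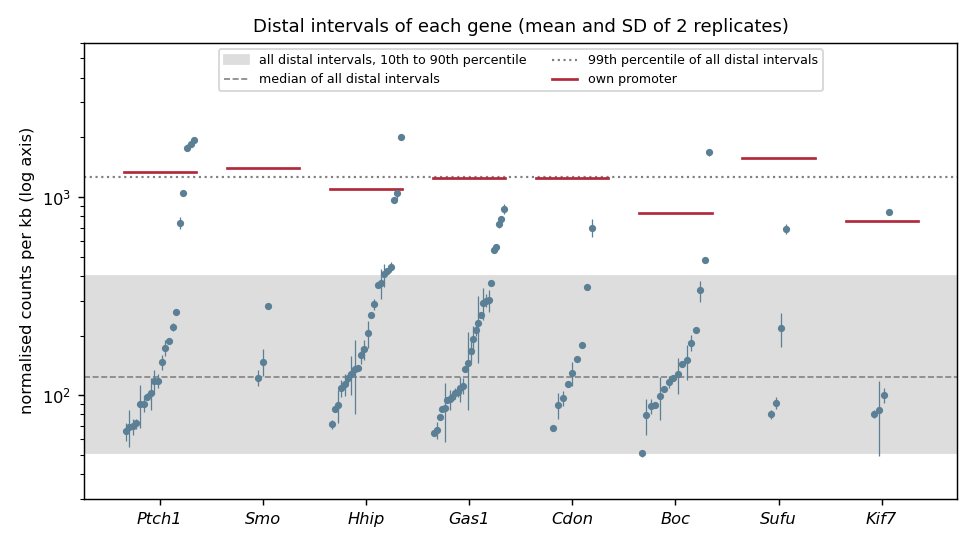
Density (normalised counts per kb, log axis) of every distal interval of the 8 genes, with the SD of 2 replicates, set against all distal intervals (grey band, 10th to 90th percentile; dashed line, median; dotted line, 99th percentile) and the gene's own promoter (red line). Of 106 distal intervals 5 lie above the dotted line, at Ptch1, Hhip and Boc, and Ptch1, Hhip, Boc and Kif7 each have a point above their promoter.

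Among the receptors, Ptch1 had its counts gathered around its alternative promoters. Of its 5 annotated TSSs only the outermost was in an interval, chr13:63572347-63573894, which also overlaps a coding exon. The 4 Ptch1 intervals within 5 kb of a TSS spanned 10.8 kb and held 77.8% ± 0.121 of the gene's counts, beside 52.7% ± 0.686 within 5 kb of its 5′ end alone. The densest was an intronic interval at chr13:63563056-63563509, with 1921 and 1953 in the 2 replicates. It was 1.45 times as dense as the promoter. The interval with the most counts, chr13:63567650-63569543, held 33.2% of the gene's counts and had densities of 1836 and 1880. It overlaps an exon of the noncoding gene A930032L01Rik. The third, chr13:63565839-63566845, ended 0.104 kb from a TSS of Ptch1 and had densities of 1821 and 1726. It counts as distal by the definition used, although it lies at a start site, and when intervals within 1 kb were taken as promoter the density of Ptch1 was 1572.

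The 250 bases before the inner Ptch1 TSS at chr13:63565735 are shown as RefSeq gives them on GRCm38.p6. This TSS lies in no interval, and it was chosen since dense intervals lie on both sides of it. Another TSS lies further in, at chr13:63564326, 0.817 kb from the densest interval. The 250 bases reach into the interval upstream of the inner TSS and begin, at that TSS, just outside it. The densest distal interval of Ptch1 is shown as its central 300 bases. In these and the following sequences capitals mark matches, on either strand, to 12 motifs searched: GLI GACCACCCA, SOX ACAATG, homeodomain TAATTA, E-box CAGCTG, FOXA TGTTTAC, RFX GTTGCCA, nuclear receptor AGGTCA, NRF1 GCATGCGC, ETS CCGGAAG, NFY ATTGG, SP/KLF GGGCGG and CRE TGACGTCA.
Ptch1 before the inner TSS, chr13:63565736-63565985, minus strand: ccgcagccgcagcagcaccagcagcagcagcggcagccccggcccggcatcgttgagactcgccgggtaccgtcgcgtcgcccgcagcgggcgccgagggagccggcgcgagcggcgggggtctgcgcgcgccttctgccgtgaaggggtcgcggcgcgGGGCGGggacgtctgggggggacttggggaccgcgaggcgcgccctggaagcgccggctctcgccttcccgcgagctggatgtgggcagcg
Ptch1 densest distal interval, chr13:63563133-63563432, plus strand: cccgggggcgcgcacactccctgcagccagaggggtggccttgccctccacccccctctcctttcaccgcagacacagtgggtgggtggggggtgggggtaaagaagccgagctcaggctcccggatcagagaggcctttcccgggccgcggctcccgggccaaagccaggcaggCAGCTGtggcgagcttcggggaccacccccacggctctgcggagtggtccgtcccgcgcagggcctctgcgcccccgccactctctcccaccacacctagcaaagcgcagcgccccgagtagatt
The first has 1 SP/KLF match, a motif found in 32.7% of all 32851 such RefSeq stretches. The second has 1 E-box, found in the central 300 bases of 22.9% of all distal intervals and 25.5% of the 106. The second also holds GACCACCC, the first 8 letters of the GLI motif, which is not a full match and is not capitalised. It is rich in G and C, which make up 70.0% of the whole interval, beside a median of 48.4% over all distal intervals.

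Smo, the transducer that PTCH1 restrains and SAG activates, had most of its counts at 1 place. Its TSS interval, chr6:29735312-29736642, overlaps a coding exon and held 76.5% of its counts, and the densities in the 2 replicates were nearly equal. None of the 3 distal intervals came near it. The densest, chr6:29723413-29724209 in intergenic sequence, had 279 and 283. The one with the most counts, chr6:29717969-29719520, had raw counts of 204 and 254 (unadjusted exact binomial p = 0.0219) and is the one with the GLI letters printed above.

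Hhip, the decoy receptor, had the densest distal interval of the 8 genes. This interval, chr8:80054169-80054592, lies in an intron of Hhip, 3.41 kb from the TSS. Its densities were 1987 and 2044, above 99.8% of all distal intervals and 1.84 times the promoter. A pair of further intronic intervals, named after their values were seen, had 1045 ± 66.2 at 20.1 kb and 963 ± 35.8 at 2.08 kb downstream. In sum 15 of the 22 distal Hhip intervals had a mean normalised count over 100. None of the Hhip intervals held the GLI letters. The central 300 bases of the densest one carry 2 E-boxes and 1 SOX match, and SOX matches were found in 23.5% of all distal intervals and 18.9% of the 106. G and C were 43.2% of this interval, well below the value in its Ptch1 counterpart.
Hhip densest distal interval, chr8:80054231-80054530, plus strand: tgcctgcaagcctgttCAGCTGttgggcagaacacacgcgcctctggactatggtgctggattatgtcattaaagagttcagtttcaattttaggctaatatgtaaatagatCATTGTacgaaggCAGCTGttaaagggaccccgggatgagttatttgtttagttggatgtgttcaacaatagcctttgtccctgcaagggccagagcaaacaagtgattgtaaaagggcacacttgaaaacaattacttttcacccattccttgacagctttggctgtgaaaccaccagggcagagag

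Gas1, Cdon and Boc encode co-receptors that act together with PTCH1, and their loci were unlike each other. Gas1 is a short gene of 2.96 kb, and its TSS interval, chr13:60175685-60178730, overlaps its coding exon and had densities of 1254 and 1233. Its 28 distal intervals reached 211 kb from the TSS, and 20 of them were intergenic. The densest, chr13:60084820-60085650, lies in an intron of the noncoding gene A530065N20Rik, 91.3 kb from the TSS, and had 835 and 906. The one with the most counts, chr13:60146314-60148056, had 770 and 786 and held 12.7% of the counts. No distal Gas1 interval was as dense as the promoter, and only 44.9% of the counts lay within 20 kb of a TSS.

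At Cdon 90.1% of the counts lay within 20 kb of an annotated TSS, internal ones in no interval included. From the 5′ end of the gene alone, measured after the values were seen, the share was 67.2%, beside 44.9% at Gas1. Its TSS interval, chr9:35421053-35422762, covers 2 of 5 annotated TSSs. The densest distal interval, chr9:35424647-35424847, is intronic and only 201 bp long, with densities of 647 and 751 from raw counts of 130 and 151. The interval with the most counts, chr9:35442456-35444497, also intronic, had 344 and 359 and held 19.3% of the counts.

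Boc had a single dominant distal interval. Intronic chr16:44530162-44531727, 27.2 kb from the TSS, had densities of 1630 and 1724, against 813 and 849 at the promoter. The ratio was 2.02 ± 0.0180, and the replicate values of the 2 intervals did not overlap. The interval held 48.3% of all counts at Boc, and the TSS interval, chr16:44557707-44559507, held 27.5%. The next distal interval of Boc was at 484 ± 8.31. The raw counts of the dominant interval, 2552 and 2701, differed at an unadjusted exact binomial p of 0.0440 and an adjusted p of 0.576. Its central 300 bases are shown because they lie at the strongest place of the locus, and none of the 12 motifs was found in them.
Boc densest distal interval, chr16:44530795-44531094, plus strand: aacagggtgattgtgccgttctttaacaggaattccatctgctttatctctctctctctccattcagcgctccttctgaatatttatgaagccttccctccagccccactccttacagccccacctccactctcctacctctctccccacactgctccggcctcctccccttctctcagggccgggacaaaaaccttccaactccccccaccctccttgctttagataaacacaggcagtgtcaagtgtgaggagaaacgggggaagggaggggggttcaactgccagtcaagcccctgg

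Inside the cell, Sufu had the highest promoter density of the 8 genes, and Kif7 the lowest. Both ends of the order changed when densities were scaled to the own chromosome, with Ptch1 (1455 ± 0.279) and Sufu (1452 ± 37.8) then level and Boc (721 ± 26.0) below Kif7 (781 ± 11.3). With intervals within 1 kb taken as promoter, Ptch1 (1572 ± 12.9) was level with Sufu as well. The Sufu TSS interval, chr19:46395066-46397765, is 2700 bp long and also covers the nearest TSS of Actr1a, a neighbouring gene. Its counts cannot be divided between the pair, and it was the only member interval that was also nearest to another gene. It had raw counts of 4347 and 4153, with an unadjusted exact binomial p of 0.0326 and an adjusted p of 0.547. Of 4 distal intervals, all intronic, only chr19:46443377-46444555 was dense, with 664 and 722, at 46.4 kb. The 250 bases before the RefSeq TSS hold 1 NFY and 1 SP/KLF match, and NFY matches are found in 33.8% of all such stretches.
Sufu before the TSS, chr19:46396646-46396895, plus strand: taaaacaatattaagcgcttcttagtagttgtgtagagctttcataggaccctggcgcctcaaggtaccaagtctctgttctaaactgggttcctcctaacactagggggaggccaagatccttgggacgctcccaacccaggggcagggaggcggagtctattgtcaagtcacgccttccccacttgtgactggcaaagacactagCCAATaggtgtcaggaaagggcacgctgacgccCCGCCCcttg

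Kif7 is a compact gene of 17.6 kb with 5 intervals, and 93.3% of its counts were within 5 kb of a TSS. The TSS interval, chr7:79714973-79716189, had 742 and 766. A distal interval over a coding exon, chr7:79710026-79710763, had raw counts of 619 in both replicates and a density of 839 ± 0.485. It was thus 1.11 ± 0.0249 times as dense as the promoter, and the replicate values of the 2 intervals did not overlap. The other 3 Kif7 intervals were between 80.4 and 100.003.

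The GLI letters were also sought in the central 300 bases only, where they were present in 3 of 106 distal member intervals (2.83%) and in 0.497% of all distal intervals, and in 0 of the 8 TSS intervals. FOXA matches were found in 6 of the 106 distal member intervals (5.66%), close to the 4.75% of all distal intervals. All 6 had a mean normalised count over 100, where they were 6 of 53 (11.3%) beside 4.59% of 32616. These 6, counted after their values were seen, belonged to Gas1 (2), Hhip (2), Boc (1) and Cdon (1). FOXA was 1 of 12 motifs, and in the same 53 the other shares went both ways. GLI (3.77% beside 0.589%), E-box (26.4% beside 21.9%) and nuclear receptor matches (24.5% beside 21.2%) were higher. The rest were lower, among them SOX (18.9% beside 22.6%), homeodomain (3.77% beside 7.53%) and SP/KLF (7.55% beside 13.0%). NFY (32.1% and 32.5%) and nuclear receptor matches (19.8% and 22.4%) were about as frequent in the 106 as in all distal intervals. With 106 intervals, several of them neighbours, such shares are descriptions.

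The replicate difference was small beside the range among these genes. At a mean normalised count over 100, the 3 members furthest apart were 2 intergenic Gas1 intervals and 1 Hhip interval. The raw counts were 154 and 119 at chr13:60364961-60365426 (log2 ratio -0.37), 302 and 240 at chr13:60216427-60217833 (-0.33), and 129 and 162 at chr8:80138438-80139147 (0.33). The lowest adjusted p of all members was 0.386, at the second of these. The test compares the 2 libraries and not conditions. Fragments carried no molecular identifiers, and the test has no term for variation beyond counting, so these p-values cover counting error only.

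**Figure D5:**
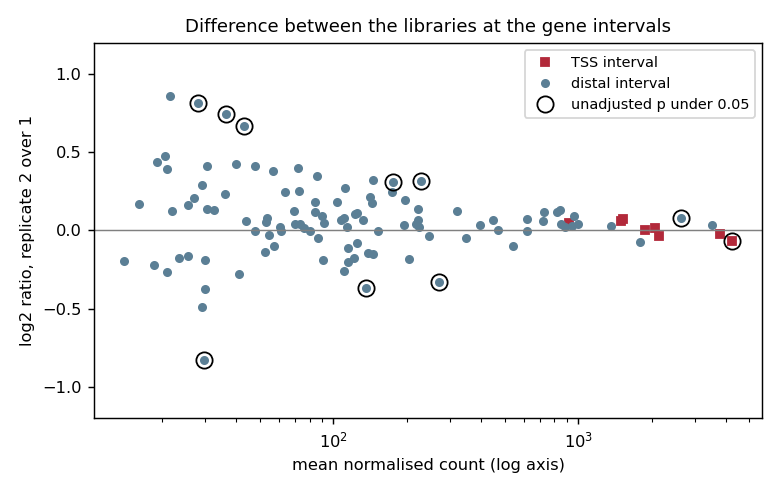
Log2 ratio of replicate 2 over replicate 1 against the mean normalised count (log axis) for the 114 intervals, with TSS intervals as red squares, distal intervals as blue circles, and black rings for the 10 with an unadjusted exact binomial p under 0.05. The spread narrows as counts rise, and 0 of the 114 were called after adjustment.

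The rest of the pathway was read from a list of 41 further genes. A TSS interval was present at 39, and 25 of these were above the median of 853. The median of the list, with the 2 others at 0, was 950 ± 44.3. The lowest promoters were those of the ligand genes Dhh (254 ± 1.40) and Ihh (297 ± 0.835) and of Hhat (346 ± 6.98), which encodes the acyltransferase of the ligands. Shh itself had no TSS interval, although 1 interval lay within 1 kb of its TSS. Of the 8 ligand and release genes with a TSS interval, 0 were above the median of genes. All 3 Gli genes were above it, with 992 ± 5.39 at Gli1, 922 ± 4.25 at Gli2 and 1373 ± 15.2 at Gli3. Of the kinases, ligases and other regulators 12 of 14 were above it, as were 6 of 9 ciliary genes. Gpr161, a ciliary receptor that keeps the pathway low, had no TSS interval and none within 1 kb. The highest were Prkaca (4024 ± 24.5), Gsk3b (3284 ± 13.0) and Btrc (2605 ± 18.2). Prkaca encodes a catalytic subunit of protein kinase A, and Gsk3b a kinase that phosphorylates GLI proteins. Btrc encodes part of the ligase that recognises phosphorylated GLI. Prkaca lies on chromosome 8, whose TSS intervals were high.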

How the data were processed

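The authors aligned read pairs to mm10 with the nf-core atacseq pipeline, called peaks with MACS and kept peaks found in at least 2 replicates. The deposited values are raw counts per consensus interval, made with featureCounts 2.0.1, per the file header. A fragment was counted in every interval that it overlapped by a fraction of at least 0.2. The 3 other columns of the table belong to no sample analysed here and were not used, although they helped define the intervals. The submitters' processing notes also name DESeq2.

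Normalisation used the size factors of DESeq2 (1.42.0), and density is the normalised count per kb. An interval was assigned to the gene of its nearest protein-coding TSS (GENCODE, GRCm38.p6, the mm10 assembly), with ties kept. TSS intervals overlap such a TSS, and others are distal. The promoter density of a gene was that of its TSS intervals. The libraries were compared by a two-sided exact binomial test per interval, with Benjamini-Hochberg adjustment over all intervals (limit 0.01), tested on simulated data. With 1 group, no test between conditions was possible. Sequences came from GRCm38.p6 and RefSeq promoters, and motif matches are exact letters on either strand, free to overlap. Motif shares used the central 300 bases, except GLI, sought in whole intervals.

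The members and lists were chosen with earlier results of these data known. Named were every member gene, its TSS interval, its densest and most counted distal interval, intervals with the GLI letters, those called by the test and the 3 with the largest replicate difference at a mean over 100, and of the pathway list the 3 highest and 3 lowest promoters and those without a TSS interval. Other features, such as the Gli genes, were named after their values were seen. Alternatives were edgeR (4.0.16) TMM or total-count scaling, a low-count minimum of 10, gene-level TSSs, distance from interval centres, TSS intervals within 1 kb, counts per interval, scaling to the own chromosome, other GLI settings and leaving out each replicate, and, added after seeing the data, leaving out Ptch1 and distance from the 5′ end. Other tools were pysam 0.24.0, scipy 1.17.1 and statsmodels 0.14.6 under Python 3.11.15.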

Additional observations from a re-analysis of the deposited data

How the results depend on the processing

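Most summaries stayed within 1 SD of the replicates, or within 1.5 times for counts. The exceptions were these. With the GLI letters sought in the central 300 bases only, the share of the 114 intervals that held them was 2.63%, as the 300 bases leave out part of longer intervals. With TSS intervals taken within 1 kb, the TSS share of the 8 genes' counts was 44.6%. As counts per interval, a different unit, the median was 1968 at the promoters, 97.7 at the distal intervals and 1475 at the promoters of the pathway list. Scaled to each gene's own chromosome, the promoter medians were 1296 for the 8 genes and 1004 for the pathway list. Without 1 replicate, the promoter median ran from 1233 to 1259, the distal median from 135 to 152, the TSS share from 38.4% to 39.3% and the pathway list median from 919 to 982. Of 88 values of single genes under the alternatives, 16 moved by more than the spread of the replicates. Most of the 16 came from counts per interval or from scaling to the own chromosome. The latter moved every promoter density except that of Cdon. With 2 replicates, leaving out 1 shifts a value by less than 1 SD by construction, so that setting could not show a move. No paired analysis was possible because the series had 1 group. With 2 replicates each SD is itself uncertain, and the lowest distal intervals rest on few counts. The cause of each shift was not tested.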
